A study of Homo sapiens with 9 samples.

Results

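Death receptor signalling was followed through 10 genes, chosen by name from the 60708 genes of the count table: the ligand TNFSF10, the receptors FAS, TNFRSF10A, TNFRSF10B, TNFRSF10D and TNFRSF1A, the adaptors FADD and TRADD, the kinase RIPK1 and the inhibitor CFLAR. All 10 were found by their Ensembl gene IDs, and all 10 passed the filter on low counts. RNA was sequenced from MDA-MB-231, a human cell line from a triple-negative breast cancer, in 9 libraries that fell into 3 groups of 3. The Recovery libraries came from cells treated with 10 nM pladienolide B (PdB) for 16 h and then left for 24 h to recover. PdB is a compound that binds the SF3B complex of the spliceosome and blocks recognition of the intron branch point. The PdB libraries came from cells treated with 10 nM for 16 h, and the DMSO libraries from cells given the vehicle. The labels give 1 DMSO group for both comparisons and no separate vehicle group for the recovery time, and they do not say that replicates were separate cultures, so p-values measure only the spread between these libraries, which may be technical.

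Death receptors are cell-surface proteins of the tumour necrosis factor receptor family that carry a death domain in their cytoplasmic tail. When FAS binds its ligand, or when TNFRSF10A or TNFRSF10B bind TRAIL, the product of TNFSF10, the death domains recruit the adaptor FADD, which in turn gathers CASP8 into a death-inducing signalling complex. CFLAR, the gene of c-FLIP, encodes a relative of CASP8 without protease activity that takes its place in this complex. TNFRSF1A, the main receptor for TNF, works through TRADD and RIPK1 and leads first to NF-kB signalling, or to cell death when that arm fails. TNFRSF10D encodes a decoy that binds TRAIL with a truncated death domain.

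Library totals lay between 56389689 and 67047079 counts, and no 2 replicates agreed within counting noise. Levels are CPM, counts scaled to a common library size with TMM factors, and log2 changes are given ± SE. ESR1, the oestrogen receptor gene that this cell type lacks, had 0 counts in all 9 libraries, while VIM, a mesenchymal marker that it expresses, lay between 1079 and 2909 CPM. ERBB2 was present, at 49.1 to 109.6 CPM. Of the 9 leukocyte, endothelial and fibroblast markers, COL1A1 reached 24.1 CPM and the other 8 stayed at or below 1.42 CPM. The summed fibroblast markers were 25.1 CPM in Recovery, 3.08 CPM in PdB and 8.79 CPM in DMSO, nearly all of it COL1A1, while DCN stayed at or below 0.127 CPM. The summed luminal epithelial markers were 181 CPM in Recovery, 125 CPM in PdB and 287 CPM in DMSO, led by KRT19. GATA3 of the same list went another way, at 22.5 CPM in Recovery, 45.9 CPM in PdB and 13.5 CPM in DMSO, and EPCAM was at 2.42 CPM in Recovery, 5.71 CPM in PdB and 5.29 CPM in DMSO. The part of these markers in the results was not tested.

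After 16 h of PdB, FADD, TNFRSF10D, FAS and CFLAR rose, TRADD, TNFSF10, TNFRSF10A and RIPK1 fell, and TNFRSF10B and TNFRSF1A did not pass the test. The 8 called genes of 10 stand beside 70.1% of all 20812 genes tested (32.0% called higher and 38.2% called lower, edgeR's quasi-likelihood test, adjusted p below 0.05 over all genes). In the same 8 genes the PdB libraries did not overlap the DMSO libraries, against 72.5% of all genes. The shares among the 10 genes were therefore close to the background, and the median log2 change of the 10 was 0.0016 against -0.11 for all genes. Their median absolute log2 change was 0.93, against 0.89 for all genes. Medians near 0 came from changes in opposite directions, and 5 of the 10 changed by at least 2-fold, as 45.4% of all genes did. The scaling sets part of each small change, since the median of all genes was -0.31 where only library totals were used and 0.039 under upper-quartile scaling.

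At recovery the set looked different. Against DMSO, TNFRSF10D, CFLAR, RIPK1 and TNFRSF10A were higher and TNFRSF1A and FADD were lower, 6 calls of 10 where 61.2% of all genes were called (30.7% higher, 30.5% lower). TNFSF10, TRADD, FAS and TNFRSF10B were not called. The Recovery libraries did not overlap the DMSO libraries in 7 of the 10, against 70.4% of all genes. Between Recovery and PdB all 10 genes were called, 6 higher and 4 lower, where 66.1% of all genes were called (34.6% higher, 31.5% lower), and all 10 were separated, against 70.5%. With library totals the split of all genes in this comparison was 8862 higher and 4876 lower, beside 7204 and 6563 with TMM factors. Both comparisons with DMSO share the DMSO libraries, and both comparisons of Recovery share the Recovery libraries.

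**Figure D1:**
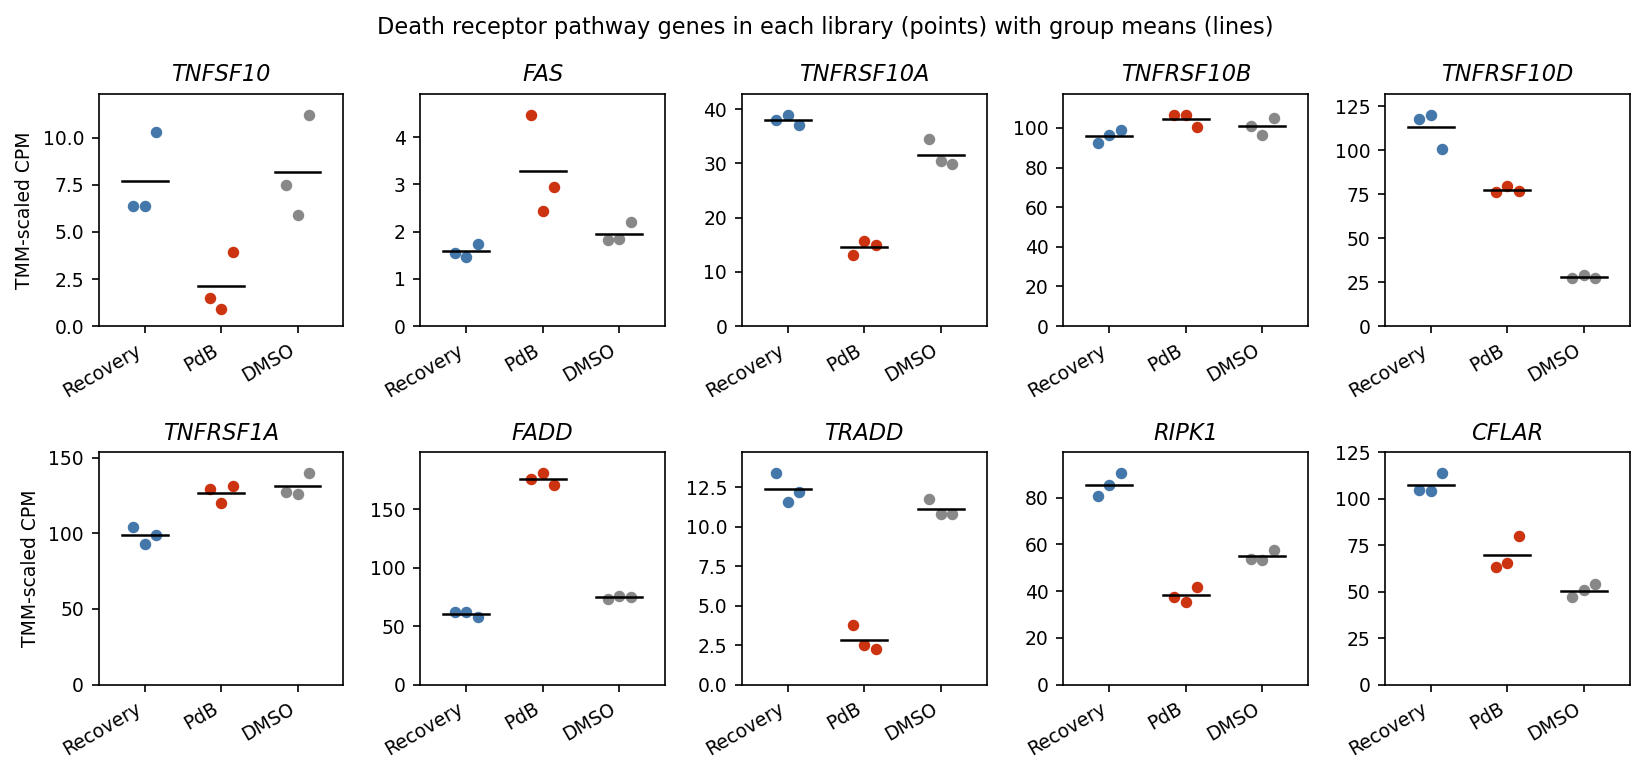
Level of each of the 10 genes (y axis, TMM-scaled CPM from 0) in the Recovery, PdB and DMSO groups (x axis); each point is 1 library and each line the mean of 3. FADD stands at 171 to 181 CPM in PdB and at no more than 76.2 CPM elsewhere, TNFRSF10D is highest at recovery, and TRADD drops to 2.25 to 3.75 CPM in PdB.

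**Figure D2:**
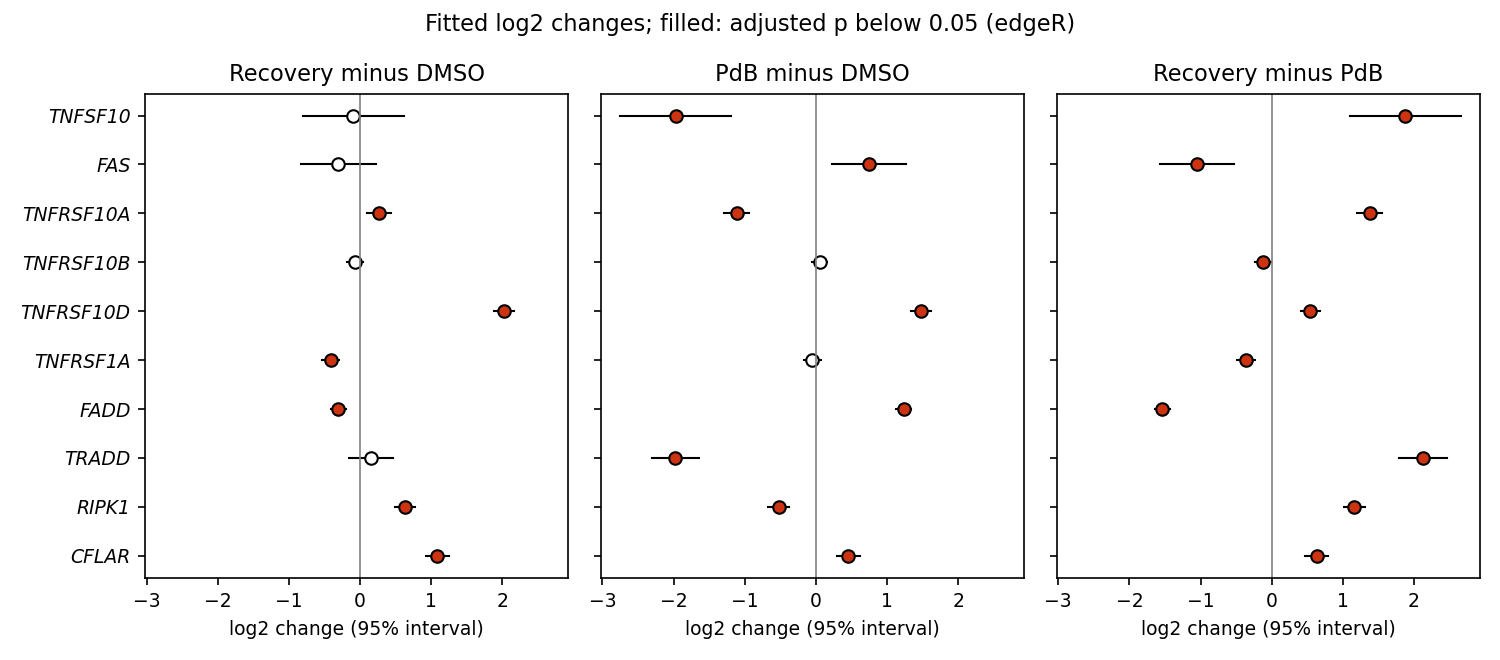
Fitted log2 change of each gene (x axis) for Recovery minus DMSO, PdB minus DMSO and Recovery minus PdB; lines are 95% intervals and filled points passed the test. TNFRSF10D and CFLAR lie right of 0 in all 3 panels, while TRADD, TNFSF10 and TNFRSF10A lie left of 0 in PdB minus DMSO and right of 0 in Recovery minus PdB.

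The ligand gene TNFSF10 (ENSG00000121858.11, chromosome 3 of GRCh38 in GENCODE 29, 172505508 to 172523507, minus strand) was low under PdB and back near its DMSO level at recovery. It had 6.37, 6.38 and 10.3 CPM in the Recovery libraries, 1.49, 0.888 and 3.96 CPM in the PdB libraries and 7.51, 5.88 and 11.2 CPM in the DMSO libraries. Replicate 3 was the highest of its group each time, and every PdB library lay below every other library. The fall under PdB against DMSO was -1.97 ± 0.37 (adjusted p = 0.00011), to 25.7% of the DMSO mean. Recovery exceeded PdB by 1.88 ± 0.37 (adjusted p = 0.00020). PdB replicate 3 decides part of both sizes: without it they were -2.79 and 2.696. Recovery against DMSO gave -0.094 with a 95% interval of -0.80 to 0.61, a wide interval around 0, and the sign of this difference turned when DMSO replicate 3 was left out (0.20). In a bulk sample, a lower level in every cell and fewer cells with the transcript cannot be told apart.

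The start-site window of TNFSF10 is shown because it holds letter matches to the interferon response motif and to a TATA box (TATAAA), which are in capitals (RefSeq, GRCh38.p14, chr3:172523381-172523680, minus strand, 250 bases before to 50 after the start, 5′ to 3′).
TNFSF10: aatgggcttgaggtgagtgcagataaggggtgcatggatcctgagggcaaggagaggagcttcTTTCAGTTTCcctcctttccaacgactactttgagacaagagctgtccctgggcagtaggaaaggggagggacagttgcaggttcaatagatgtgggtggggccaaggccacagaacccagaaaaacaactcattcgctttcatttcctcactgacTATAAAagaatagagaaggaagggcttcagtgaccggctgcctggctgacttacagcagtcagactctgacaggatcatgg
Counted from the start site, the interferon response letters begin at position -187, on the opposite strand, and TATAAA begins at position -31. Among 35116 windows of the same length, 3.57% held the interferon response motif on either strand and 11.5% held TATAAA. Neither match was particular to TNFSF10 among the 10 genes. RIPK1 held the same stretch of interferon response letters in windows that overlap each other (at -67 or at -183, depending on the start site). It held TATAAA in another window (at -30). TNFSF10 is a known interferon-induced gene. A match of letters does not show that a factor binds there.

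FAS (ENSG00000026103.22, GRCh38 chromosome 10, 88990582 to 89015785, plus strand), the receptor for FAS ligand, was the lowest of the 10 genes in Recovery and DMSO. It had 1.54, 1.47 and 1.75 CPM in the Recovery libraries, 4.48, 2.43 and 2.94 CPM in the PdB libraries and 1.83, 1.84 and 2.19 CPM in the DMSO libraries, which is 92 to 253 counts a library. PdB replicate 1 stood highest, and the other 2 PdB libraries lay just above the DMSO range. FAS rose under PdB by 0.75 ± 0.25 against DMSO (adjusted p = 0.012). That call ended without PdB replicate 1 (0.45, adjusted p = 0.11) and with library totals (0.55, adjusted p = 0.056). Recovery was lower than PdB (-1.05 ± 0.25, adjusted p = 0.0011) and against DMSO was not called (-0.30, 95% interval -0.83 to 0.23). Exons of FAS overlap those of ACTA2 on the other strand, which averaged 17.7 counts in Recovery, 27 counts in PdB and 82.3 counts in DMSO. Whether counting used the strand is not given in the sources used here.

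Windows at the starts of FAS and FADD are shown because both genes rose under PdB and both windows hold the AP-1 letters TGANTCA, in capitals (RefSeq, GRCh38.p14, 5′ to 3′, FAS chr10:88990548-88990847 and FADD chr11:70203046-70203345, both plus strand).
FAS: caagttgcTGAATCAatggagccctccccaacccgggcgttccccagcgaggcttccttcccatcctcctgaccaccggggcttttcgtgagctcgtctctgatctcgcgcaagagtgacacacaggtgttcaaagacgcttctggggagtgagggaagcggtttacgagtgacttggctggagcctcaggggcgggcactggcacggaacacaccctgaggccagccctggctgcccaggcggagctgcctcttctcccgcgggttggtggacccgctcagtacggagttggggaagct
FADD: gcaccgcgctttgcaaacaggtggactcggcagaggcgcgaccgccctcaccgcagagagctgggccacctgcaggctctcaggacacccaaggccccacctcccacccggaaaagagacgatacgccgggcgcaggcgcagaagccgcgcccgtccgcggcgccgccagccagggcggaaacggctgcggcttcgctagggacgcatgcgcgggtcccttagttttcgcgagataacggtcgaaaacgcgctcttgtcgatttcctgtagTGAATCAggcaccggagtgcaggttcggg
The letters begin at position -242 from the FAS start site and at position 21 from that of FADD. CFLAR, which also rose, holds TGANTCA in 1 of its 4 windows, and FAS in 1 of its 3. In all, 6 of the 10 genes had 13 windows in the table, of which 3 held TGANTCA, against 7.71% of the 35116 windows. TNFRSF10D, which rose most under PdB, had no window, nor had TNFRSF10A, TNFRSF10B and TRADD. The windows shown were picked for a rise together with a match, and a link between them was not tested. None of the 13 held TGACGTCA (the CRE), TGATGNAAT (the composite of ATF4 and C/EBP factors) or the NF-kB motif, which 1.85%, 0.991% and 1.91% of all windows hold on either strand. Windows of 1 gene can overlap each other, and no match says only that these letters are not in the window.

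The TRAIL receptors moved apart from each other. Those among the 10 genes lie near each other on chromosome 8 of GRCh38, each on the minus strand. TNFRSF10B (ENSG00000120889.13) lies at 23020133 to 23069179, TNFRSF10D (ENSG00000173530.6) at 23135588 to 23164030 and TNFRSF10A (ENSG00000104689.10) at 23190452 to 23225126. The decoy TNFRSF10D had 118, 120.2 and 101 CPM in the Recovery libraries, 76.3, 79.5 and 77.0 CPM in the PdB libraries and 27.2, 29.1 and 27.2 CPM in the DMSO libraries. The 3 groups did not overlap, and Recovery was the highest. TNFRSF10D rose by 1.48 ± 0.068 under PdB against DMSO (adjusted p = 6.5e-13) and by 2.02 ± 0.068 at recovery against DMSO (adjusted p = 5.4e-14), a 4.06-fold difference with a 95% interval of 3.67 to 4.48. Recovery exceeded PdB by 0.54 ± 0.065 (adjusted p = 6.0e-07).

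TNFRSF10A, one of the pair of TRAIL receptors with a full death domain, went the other way under the drug. It had 37.98, 39.0 and 37.1 CPM in the Recovery libraries, 13.1, 15.8 and 15.01 CPM in the PdB libraries and 34.4, 30.5 and 29.9 CPM in the DMSO libraries. The PdB libraries lay below all others, and the Recovery libraries just above the DMSO range. The fall under PdB was -1.11 ± 0.084 against DMSO (adjusted p = 8.9e-10), to 46.3% of the DMSO mean. Recovery was higher than PdB by 1.38 ± 0.084 (adjusted p = 5.4e-11) and higher than DMSO by 0.27 ± 0.081 (adjusted p = 0.0083). Exons of AC100861.1, on the other strand, overlap those of TNFRSF10A. This gene averaged 335 counts in Recovery, 137 counts in PdB and 254 counts in DMSO, and its part in the values was not tested. TNFRSF10A-AS1, which also overlaps TNFRSF10A in exons on the other strand, averaged 7.67 counts in Recovery, 0 counts in PdB and 1 count in DMSO.

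TNFRSF10B, the other full TRAIL receptor and a known target of the stress factor DDIT3, stayed within a narrow range. Its levels were 92.2, 96.3 and 98.8 CPM in the Recovery libraries, 107, 107 and 100.5 CPM in the PdB libraries and 101, 96.5 and 105 CPM in the DMSO libraries. PdB against DMSO gave 0.053 ± 0.053 (adjusted p = 0.39), a ratio of 1.04 with a 95% interval of 0.96 to 1.12. The direction and the call of this small difference depended on the scaling, at -0.14 with library totals (adjusted p = 0.018) and 0.20 after upper-quartile scaling (adjusted p = 0.0019). TNFRSF10B was also called higher with RLE factors (0.15, adjusted p = 0.019) and with DESeq2 (0.15, adjusted p = 0.018). On the 6 libraries of this comparison alone it just passed (0.13, adjusted p = 0.0499). DDIT3 itself was at 22.2 ± 0.97 CPM in Recovery, 57.1 ± 3.3 CPM in PdB and 11.5 ± 1.1 CPM in DMSO. TNFRSF10B was lower in Recovery than in PdB, by -0.13 ± 0.053 (adjusted p = 0.041). This call ended in 8 of the 9 fits that left out 1 library (adjusted p between 0.051 and 0.22), the exception being PdB replicate 3. It also ended without the filter on low counts (adjusted p = 0.15), and the difference turned to 0.14 with library totals. Exons of RHOBTB2, on the other strand, overlap TNFRSF10B, and RHOBTB2 averaged 2125 counts in Recovery, 823 counts in PdB and 1601 counts in DMSO. Over the 9 libraries and 12359 other genes, the log2 CPM of MACO1 (Pearson r = 0.949), PCOLCE2 (0.913) and ZFAND4 (0.904) correlated most with that of TNFRSF10B. These correlations are descriptions, since the libraries share their groups, and r does not compare the sizes of changes.

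The decoy took up more of the TRAIL receptor RNA in both PdB and Recovery than in DMSO. Per kilobase of merged exons, TNFRSF10D made up 50.1% ± 2.6 of the summed level of the TNFRSF10 receptor genes in Recovery, 46.4% ± 0.34 in PdB and 20.5% ± 1.3 in DMSO (mean ± SD, n = 3). TNFRSF10B made up 29.2% ± 2.2, 42.9% ± 1.3 and 50.9% ± 1.6 in the same order of groups. The corresponding shares of TNFRSF10A were 20.3% ± 0.47, 10.48% ± 0.82 and 27.9% ± 1.7. TNFRSF10C, the lipid-anchored decoy gene, averaged at most 0.733% in any group. The ratio of TNFRSF10D to TNFRSF10A averaged 2.48 in Recovery, 4.44 in PdB and 0.737 in DMSO, and the groups did not overlap. An exact two-sided permutation test of such a ratio gave p = 0.1, the smallest that 3 against 3 libraries allow (adjusted p = 0.11 over 12 ratio tests). Shares and their order depend on the length assigned to each gene, whereas the change of a ratio between groups does not. With the median length of the coding transcripts, the levels per kilobase at recovery were 38.9 for TNFRSF10A, 32.6 for TNFRSF10B and 31.9 for TNFRSF10D, against 32.3, 34.4 and 7.87 in DMSO, so the decoy was then not the highest at recovery. The receptor genes are paralogs, and how reads that map to several places were treated is not given in the sources used here.

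**Figure D3:**
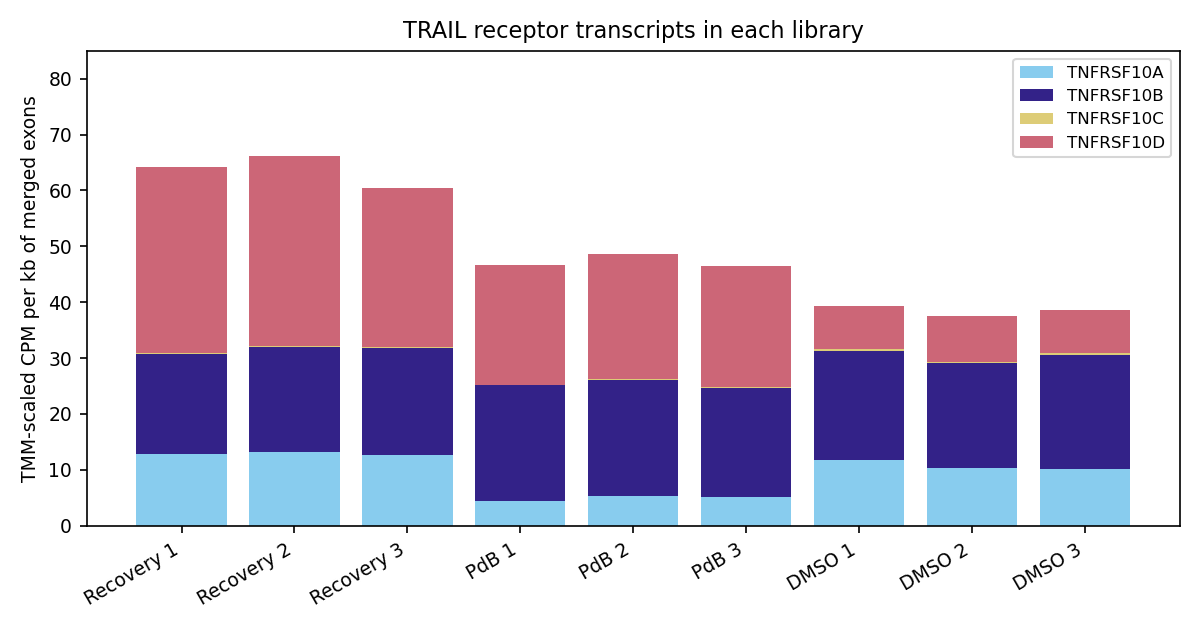
Stacked level of the TRAIL receptor genes in each library (y axis, TMM-scaled CPM per kilobase of merged exons; x axis, the Recovery, PdB and DMSO libraries). The summed height averages 63.6 in Recovery, 47.3 in PdB and 38.4 in DMSO, and the TNFRSF10D segment averages 31.9 in Recovery, 21.9 in PdB and 7.87 in DMSO.

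TNFRSF1A (ENSG00000067182.8, chromosome 12, 6328757 to 6342114, minus strand), the TNF receptor, was lower at recovery than in either other group. It ranged from 92.9 to 104 CPM in Recovery, from 120 to 131 CPM in PdB and from 126 to 140 CPM in DMSO. The Recovery range lay wholly below the other two, which overlapped each other. PdB against DMSO was not called (-0.049, 95% interval -0.17 to 0.072), and the difference was 0.10 after upper-quartile scaling, while library totals gave -0.25 (adjusted p = 0.0017). Recovery was lower than DMSO by -0.41 ± 0.058 (adjusted p = 5.9e-06), to 75.2% of the DMSO mean. Recovery was also lower than PdB (-0.36 ± 0.058, adjusted p = 2.3e-05), a call that ended with library totals (-0.094, adjusted p = 0.19). TNF itself reached no more than 10 counts and FASLG no more than 2 counts in any library, too few to test.

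FADD (ENSG00000168040.5, chromosome 11, 70203163 to 70207390, plus strand), the adaptor shared by FAS and the TRAIL receptors, showed the second largest rise of the 10 genes under PdB. It had 62.2, 61.8 and 57.8 CPM in the Recovery libraries, 176, 181 and 171 CPM in the PdB libraries and 73.0, 76.2 and 75.4 CPM in the DMSO libraries. The PdB libraries lay far above all others, and the Recovery libraries below all DMSO libraries. The rise under PdB was 1.23 ± 0.051 against DMSO (adjusted p = 1.6e-13), a 2.35-fold difference. Recovery was lower than PdB by -1.54 ± 0.052 (adjusted p = 1.8e-14) and lower than DMSO by -0.30 ± 0.051 (adjusted p = 4.3e-05), and this lower level was between -0.23 and -0.32 under the alternatives run. Exons of the antisense gene AP000879.1 overlap FADD, and it averaged 75.7 counts in Recovery, 209 counts in PdB and 98 counts in DMSO.

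TRADD (ENSG00000102871.16, chromosome 16, 67154180 to 67160298, minus strand), the adaptor of the TNF receptor, did the reverse. It had 13.4, 11.6 and 12.2 CPM in the Recovery libraries, 3.75, 2.49 and 2.25 CPM in the PdB libraries and 11.8, 10.8 and 10.8 CPM in the DMSO libraries. The PdB libraries were low, while the other groups overlapped. The fall under PdB was -1.97 ± 0.16 against DMSO (adjusted p = 2.2e-09), to 25.4% of the DMSO mean. Recovery exceeded PdB by 2.13 ± 0.16 (adjusted p = 9.2e-10), and against DMSO it was not called (0.15, 95% interval -0.15 to 0.46). Exons of FBXL8, on the other strand, overlap TRADD, and FBXL8 averaged 463 counts in Recovery, 212 counts in PdB and 569 counts in DMSO. Whether reads of one were counted for the other was not tested.

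Because PdB acts on intron recognition, the spliced joints of these adaptors are shown, with the last 15 bases of the upstream exon in lower case and the first 15 of the downstream exon in capitals (GENCODE 29, GRCh38, coding joints of the transcript with the longest coding sequence, 5′ to 3′).
FADD intron 1: cgcctggggaagaagACCTGTGTGCAGCAT
TRADD intron 2: aggctgccttggcagAGAGCGGCGGGAGCC
TRADD intron 3: atcctagcccagcagCCCGACCGGCTCCGG
TRADD intron 4: agggtcagcctgtagTGAATCGGCCGCTGA
FADD has 1 intron, of 2387 bases (70203746 to 70206132), and TRADD has 4, of 3169, 855, 82 and 136 bases. TNFSF10 also has 4 introns, and the other 7 genes have 8 to 10. Those 7 genes spanned log2 changes from -1.11 for TNFRSF10A to 1.48 for TNFRSF10D under PdB against DMSO. Counts per gene do not show whether introns were removed.

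RIPK1 (ENSG00000137275.16, chromosome 6, 3063991 to 3115187, plus strand), the kinase that passes TNF receptor signals to NF-kB or to cell death, was below its DMSO level under PdB and above it at recovery. It had 80.5, 85.3 and 90.5 CPM in the Recovery libraries, 37.5, 35.5 and 41.6 CPM in the PdB libraries and 53.8, 53.2 and 57.8 CPM in the DMSO libraries. No groups overlapped, with PdB lowest and Recovery highest. PdB was lower than DMSO by -0.52 ± 0.068 (adjusted p = 1.6e-06), and Recovery was higher than DMSO by 0.64 ± 0.067 (adjusted p = 1.4e-07). Recovery against PdB gave 1.16 ± 0.068 (adjusted p = 3.2e-11), a 2.24-fold difference. The antisense gene AL031963.3, whose exons overlap those of RIPK1, averaged 59.3 counts in Recovery, 62.3 counts in PdB and 35 counts in DMSO. Its part in the values was not tested.

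CFLAR (ENSG00000003402.20, chromosome 2, 201116104 to 201176687, plus strand), the inhibitor, climbed in both comparisons with DMSO. It had 105, 104 and 114 CPM in the Recovery libraries, 63.1, 65.7 and 79.8 CPM in the PdB libraries and 47.0, 50.8 and 54.0 CPM in the DMSO libraries. The groups did not overlap, and replicate 3 was the highest library of each. The rise under PdB was 0.46 ± 0.079 against DMSO (adjusted p = 4.4e-05), or 0.26 with library totals (adjusted p = 0.012). At recovery it was 1.09 ± 0.079 against DMSO (adjusted p = 8.6e-10), a 2.13-fold difference, and 0.63 ± 0.078 against PdB (adjusted p = 9.2e-07). The log2 CPM of SHROOM3 (Pearson r = 0.994), ALPP (0.989) and CYTOR (0.989) correlated most with that of CFLAR over the 9 libraries. Sizes of change can differ at a high r. ALPP had 42.1 CPM in Recovery, 8.77 CPM in PdB and 2.76 CPM in DMSO, and SHROOM3 had 183, 114 and 82.7 CPM. For FAS the highest r were those of SAGSIN1 (0.948), TCEAL1 (0.944) and NUBP2 (0.940). Exons of 3 other genes overlap CFLAR. AC007283.1, on the same strand, averaged 103 counts in Recovery, 16 counts in PdB and 90.3 counts in DMSO. On the other strand, the pseudogene IMPDH1P10 averaged 165, 180 and 27.7 counts and CFLAR-AS1 averaged 63, 57 and 28 counts in the same order of groups. Both were higher in Recovery and PdB than in DMSO, as CFLAR was, and their part in its values was not tested. The gene has 25 annotated transcripts, including long and short forms of the protein, which gene counts do not separate.

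Relative to other parts of the death-inducing complex, CFLAR moved unevenly. The ratio of CFLAR to FADD in CPM, used only between groups, averaged 1.78 ± 0.16 in Recovery, 0.396 ± 0.061 in PdB and 0.676 ± 0.037 in DMSO. It was thus lowest during treatment and highest after it, with no overlap between groups (exact permutation p = 0.1 for each pair, the smallest possible). CASP8, the initiator caspase, was at 32.7 ± 1.1 CPM in Recovery, 18.8 ± 0.95 CPM in PdB and 21.0 ± 0.64 CPM in DMSO. It was higher at recovery than in DMSO (0.64 ± 0.074, adjusted p = 5.5e-07) and was not called under PdB (-0.16 ± 0.076, adjusted p = 0.061; -0.36 and adjusted p = 0.00049 with library totals). The ratio of CFLAR to CASP8 averaged 3.29 ± 0.12 in Recovery, 3.71 ± 0.43 in PdB and 2.41 ± 0.19 in DMSO, with Recovery and PdB overlapping (exact permutation p = 0.3).

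Ordered by level per kilobase of merged exons in DMSO, the 10 genes ran from FADD (40.7 ± 0.88) through TNFRSF1A (32.7 ± 1.9), TNFRSF10B (19.6 ± 0.81), RIPK1 (13.0 ± 0.59), TNFRSF10A (10.7 ± 0.83), TNFRSF10D (7.87 ± 0.30), TRADD (4.34 ± 0.21), TNFSF10 (2.36 ± 0.79) and CFLAR (2.25 ± 0.16) to FAS (0.460 ± 0.049). TNFSF10 and CFLAR did not differ beyond their spread. The place of CFLAR rests on its merged exon length of 22529 bases: with the median length of its coding transcripts, 1214 bases, its level in DMSO was 41.7, and that of TNFRSF1A was 109. In PdB the order was led by FADD (95.6 ± 2.7), and TNFRSF10D (21.9 ± 0.48) stood beside TNFRSF10B (20.3 ± 0.70). At recovery FADD (32.9 ± 1.3) and TNFRSF10D (31.9 ± 3.0) did not differ beyond their spread. The orders in PdB and Recovery rest on the gene length too. With the median length of the coding transcripts, TNFRSF1A (105.5) stood above FADD (95.6) in PdB, and TNFRSF10B (35.6) above TNFRSF10D (21.9). With that length CFLAR (88.6) and TNFRSF1A (82.1) led at recovery.

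The wider pathway was read from 94 further genes in 6 lists, of which 88 were tested. Under PdB against DMSO, 33 rose and 42 fell, and at recovery against DMSO 43 rose and 26 fell. That is 85.2% called under PdB and 78.4% called at recovery, where 70.1% and 61.2% of all genes were called. Listed and other genes were not matched for level, and the difference between these shares was not tested. Their median log2 change was -0.16 under PdB, against -0.11 for all genes, and 0.17 at recovery, against 0.026 for all genes. The lists hold genes that take part in other processes too, and they were chosen with earlier results of these data known.

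The list of the TNF receptor complex held ubiquitin ligases, deubiquitinases, adaptors and kinases that act with or downstream of TRADD and RIPK1. Of its 24 genes, 6 rose and 16 fell under PdB against DMSO (median -0.66), and 11 rose and 8 fell at recovery against DMSO (median 0.13). Of all genes, 32.0% rose and 38.2% fell under PdB, and 30.7% rose and 30.5% fell at recovery. TAB1, a partner of the kinase MAP3K7, had 16.3 ± 0.71 CPM in Recovery, 2.94 ± 0.76 CPM in PdB and 26.8 ± 1.2 CPM in DMSO, and fell under PdB by -3.19 ± 0.13 (adjusted p = 2.2e-13). MAP3K7 (TAK1) stayed low, at 18.3 ± 0.53 CPM in Recovery, 15.03 ± 2.1 CPM in PdB and 48.5 ± 2.9 CPM in DMSO. SPATA2, which brings the deubiquitinase CYLD to the complex, showed the largest rise of the list in both comparisons with DMSO, 1.72 ± 0.070 at recovery and 2.36 ± 0.071 under PdB. TRAF1, an adaptor induced by NF-kB, had 16.9 ± 1.0 CPM in Recovery, 2.40 ± 0.42 CPM in PdB and 13.1 ± 2.8 CPM in DMSO, and rose most of the list from PdB to recovery (2.81 ± 0.16).

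Among 15 caspases and effectors, 4 rose and 7 fell under PdB against DMSO (median -0.16), and 6 rose and 5 fell at recovery against DMSO (median 0.046). These counts lie near the shares of all genes (32.0% higher and 38.2% lower under PdB, 30.7% and 30.5% at recovery). CASP6, an executioner caspase, fell most, to 1.71 ± 0.39 CPM in PdB against 19.9 ± 0.39 CPM in DMSO (-3.53 ± 0.15, adjusted p = 1.5e-13), and was still lower at recovery (10.46 ± 0.92 CPM, -0.92 ± 0.12). CYCS, the cytochrome c gene, rose by 1.04 ± 0.074 under PdB against DMSO. Of 14 tested regulators of the death-inducing complex, 7 rose and 6 fell under PdB (median 0.29), and 8 rose and 3 fell at recovery (median 0.30), beside the same shares of all genes. CASP8AP2, named for its binding to CASP8, rose by 1.38 ± 0.062 under PdB, while MADD, a death domain protein that binds TNFRSF1A, fell by 1.32 on the log2 scale and stood 0.39 ± 0.060 above DMSO at recovery. FAF1, a FAS-associated factor, was lower under PdB (-1.28 ± 0.083) and lower still at recovery (-1.92 ± 0.085). DEDD2, a death effector domain protein, showed the largest rise of this list at recovery (1.11 ± 0.069). GALNT14, an enzyme that glycosylates TRAIL receptors, had at most 44 counts and was lower in Recovery than in PdB by -1.42 ± 0.52 (adjusted p = 0.022). It no longer passed under library totals (adjusted p = 0.056) or without Recovery replicate 1 (adjusted p = 0.086) or 2 (adjusted p = 0.067).

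Of 13 tested ligands and receptors outside the 10 genes, 3 rose and 7 fell under PdB against DMSO (median -0.71), and 3 rose and 6 fell at recovery against DMSO (median -0.58). Of all genes, 38.2% fell under PdB and 30.5% at recovery, while 32.0% and 30.7% rose. TNFRSF1B, the second TNF receptor, had 5.72 ± 1.0 CPM in Recovery, 1.302 ± 0.40 CPM in PdB and 9.89 ± 0.90 CPM in DMSO (-2.93 ± 0.21 under PdB). LTA, a further ligand of the TNF receptors, rose in both comparisons with DMSO but was scarce, with 0.991 ± 0.27 CPM in Recovery, 1.22 ± 0.56 CPM in PdB and 0.264 ± 0.039 CPM in DMSO. TNFRSF11B, osteoprotegerin, a secreted receptor that can bind TRAIL, had 1.44 ± 0.50 CPM in Recovery, 3.97 ± 0.59 CPM in PdB and 1.49 ± 0.10 CPM in DMSO. NGFR, a neurotrophin receptor with a death domain, was lower at recovery by -2.54 ± 0.38 against DMSO, and by -3.18 without Recovery replicate 1.

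Of 4 tested necroptosis genes, 3 rose and 1 fell under PdB against DMSO (median 1.18), and 3 rose at recovery against DMSO (median 0.69), where MLKL was not called (-0.21, adjusted p = 0.16). With 70.1% of all genes called under PdB and 61.2% at recovery, 4 genes are too few to set apart from the background. MLKL, the executioner of necroptosis, had 12.3 ± 0.16 CPM in Recovery, 5.75 ± 1.0 CPM in PdB and 14.2 ± 1.7 CPM in DMSO. RIPK3, the kinase that activates it, had at most 10 counts in any library, and ZBP1 had 0. PELI1, a ubiquitin ligase, rose in both comparisons with DMSO, by 1.86 ± 0.12 at recovery and by 1.47 ± 0.12 under PdB. PGAM5, a mitochondrial phosphatase, was lower in Recovery than in PdB by -0.57 ± 0.073, or by -0.30 with library totals.

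Of 18 transcription factors known to act on receptor or ligand genes, 10 rose and 5 fell under PdB against DMSO (median 0.79), and 12 rose and 4 fell at recovery against DMSO (median 0.61). The shares of all genes were 32.0% higher and 38.2% lower under PdB, and 30.7% higher and 30.5% lower at recovery. DDIT3 led the rises under PdB (2.31 ± 0.084) and ATF3, a stress factor, those at recovery, with 47.3 ± 0.85 CPM in Recovery, 27.6 ± 0.70 CPM in PdB and 6.35 ± 0.73 CPM in DMSO. NFKB2, an NF-kB subunit, had 82.5 ± 4.1 CPM in Recovery, 21.0 ± 1.8 CPM in PdB and 54.7 ± 7.1 CPM in DMSO. CEBPB fell most between PdB and recovery, by 1.54 on the log2 scale.

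**Figure D4:**
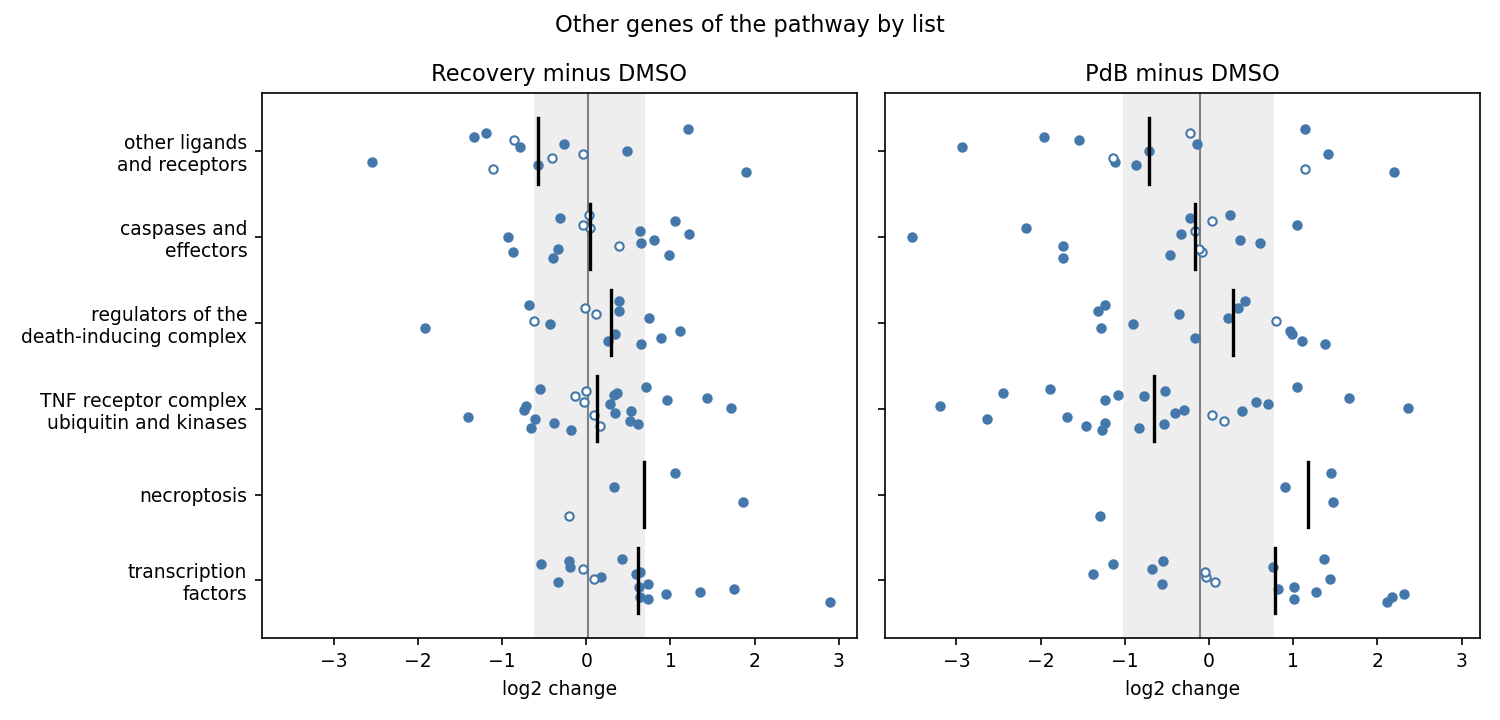
Log2 change of each tested gene of the 6 lists (x axis) for Recovery minus DMSO and PdB minus DMSO; filled points passed the test, black lines are list medians, and the grey band and line are the interquartile range and median of all 20812 genes. In PdB minus DMSO the median of the TNF receptor complex list is -0.66 and that of the transcription factors 0.79.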

How the data were processed

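Read counts were analysed for 9 libraries of polyadenylated RNA from MDA-MB-231 cells, 3 per group, prepared with the Universal Plus mRNA-Seq kit, per the labels. The authors deposited raw whole-number counts for 60708 genes, not normalised. The submitters' processing notes name fastp 0.23.2, STAR 2.7.9a, Picard, featureCounts 2.0.3, DESeq2 1.30.0 and the hg38 genome; for none of these is the setting, the annotation release, the strand use or the handling of duplicates and multiply mapped reads stated there. A symbol was found for 60507 gene IDs; gene positions, exons and introns came from GENCODE 29 (GRCh38), whose ID versions differ from the deposited ones.

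Genes were filtered with filterByExpr (20812 left), scaled by TMM and tested two-sided with edgeR 4.0.16 (R 4.3.3), quasi-likelihood, all 9 libraries, Benjamini-Hochberg over all genes, called at adjusted p below 0.05. SE is the absolute log2 change divided by the root of F. Log2 CPM used a prior count of 2. The code was tested on simulated data. Depth is given as total counts; replicates differed by more than counting noise (chi-square per degree of freedom 4.98 to 26.0). The members and lists were chosen with earlier results of these data known. Named genes are the 10 and the largest called rise and fall of each list in each comparison. Also named are the 3 genes with the highest Pearson r to each of TNFRSF10B, FAS and CFLAR (at least 100 counts on average, with a symbol that is no clone name). CASP8, TNFRSF10C, overlapping genes and the listed genes with too few counts to test were named after their values were seen. Some genes that the rule names are not reported here. The counts of calls, the median and log2 changes of the 10 genes and the log2 changes of the named pathway genes were recomputed with RLE factors, with upper-quartile factors, with library totals, without the filter, with DESeq2 1.42.0, on the 6 libraries of a comparison alone, with a block for the replicate number, at adjusted p below 0.01, and without each library in turn. Levels per kilobase were recomputed with another gene length. The alternatives for single pathway genes, for counts of groups that do not overlap (scaling and left-out libraries) and for ratios (left-out libraries) were added after seeing the data; receptor shares were recomputed under none.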

Additional observations from a re-analysis of the deposited data

How the results depend on the processing

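Of 510 recomputed log2 changes of the 10 genes, 481 kept their direction and their side of the threshold. The counts of genes called higher among the 10 stayed within 1.5 times. The genes called lower in Recovery than in PdB were 2 with library totals, where 4 were reported. The median log2 change of the 10 genes under PdB against DMSO, 0.0016, was 0.098 with RLE factors, 0.15 with upper-quartile factors, -0.20 with library totals, -0.032 with no filter, 0.079 with only the 6 libraries compared and 0.094 with DESeq2. For Recovery against PdB it was 0.54 with RLE factors, 0.51 with upper-quartile factors, 0.85 with library totals and 0.54 with DESeq2. Leaving out 1 library gave medians from -0.036 to 0.029 for PdB against DMSO, from 0.013 to 0.16 for Recovery against DMSO and from 0.55 to 0.64 for Recovery against PdB. TNFRSF1A under PdB against DMSO was 0.047 with RLE factors, 0.10 with upper-quartile factors, 0.028 with only the 6 libraries compared and 0.043 with DESeq2. TNFRSF10B was -0.14 under PdB against DMSO and 0.14 in Recovery against PdB with library totals, and 0.0012 in Recovery against DMSO with upper-quartile factors. Under PdB against DMSO it was called higher with RLE factors (0.15), upper-quartile factors (0.20), DESeq2 (0.15) and only the 6 libraries compared (0.13). TNFSF10 in Recovery against DMSO, uncalled in all fits, ran from -0.36 to 0.20 when 1 library was left out, and was above 0 without DMSO replicate 3 (0.20), Recovery replicate 1 (0.028) or Recovery replicate 2 (0.024). Of 1173 recomputed log2 changes of named pathway genes, an alternative added after seeing the data, 1160 kept direction and side and 0 turned direction. The cause was not tested.

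Under library totals 38.01% of the genes called in PdB against DMSO were higher and 64.5% in Recovery against PdB. With the replicate number as a block, the genes called were 14628 for PdB against DMSO, 12922 for Recovery against DMSO and 13871 for Recovery against PdB, and no call among the 10 changed. Libraries with the same number deviated together only weakly (r from -0.0032 to 0.048 over 9 pairs), and the main fit did not take the numbers as pairs. The highest values were those between replicates 3 of different groups (0.043 to 0.048). Libraries of different groups and different numbers gave -0.061 to 0.026. Whether replicates with the same number shared their handling was not tested. TNFSF10, at 50 to 778 counts a library, and FAS, at 92 to 253, had the widest errors of the 10 genes.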
